A study of Mus musculus with 6 samples.

Results

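The calcium-activated potassium channel genes described here are 6 in number: *Kcnn1*, *Kcnn2*, *Kcnn3*, *Kcnn4*, *Kcnma1* and *Kcnmb4*. They were taken by gene symbol from the RNA-seq tables of TurboRFP+ cells sorted from the adult mouse olfactory bulb, in which 24417 unique symbols were listed, and all 6 were among the 18409 genes that were tested. All 6 mice, adult males and 1 per library, had received AAV-GFAP-iCre-P2a-TurboRFP in the bulb, a virus in which the GFAP promoter drives the recombinase iCre together with the red fluorescent protein TurboRFP. The 3 Sox9 KO mice were Sox9fl/fl, in which iCre removes floxed exons of the transcription factor gene *Sox9*. The 3 WT mice carried no floxed allele and are named C57BL/6J in the series design and Sox9+/+ in the study's methods. The strain label of all 6 is C57BL/6. TurboRFP+ cells were sorted by FACS 4 weeks after the injection. The GFAP promoter is active mainly in astrocytes. The cells were sorted straight into lysis buffer, so that the study did not recheck the sort itself and assessed purity from cell type markers in the RNA-seq data.

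Calcium-activated potassium channels open when calcium rises inside the cell and let potassium leave, so that the membrane becomes more negative. The SK channels (small conductance), made by *Kcnn1*, *Kcnn2* and *Kcnn3*, and the intermediate-conductance channel KCa3.1, made by *Kcnn4*, sense calcium through calmodulin that is bound to the channel. The BK channel (big conductance), whose pore is made by *Kcnma1*, binds calcium itself and also responds to voltage, and accessory subunits such as the β4 subunit made by *Kcnmb4* tune its gating. In the brain, SK and BK channels are best known for the afterhyperpolarization that follows action potentials in neurons. BK channels in astrocyte endfeet are known for releasing potassium onto blood vessels, and KCa3.1 is well known from microglia and other immune cells.

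Of these genes, 5 fell in Sox9 KO cells, by between 4.82-fold (*Kcnma1*) and 16.4-fold (*Kcnn3*), while *Kcnn4* differed least, by 1.57-fold, and did not pass the test. Values are normalized counts, that is, reads on a gene divided by the size factor of the library, and a gene was called at an adjusted p under 0.05 and a difference of at least 1.5-fold in limma with Benjamini-Hochberg adjustment over all genes tested. Of the 6 channel genes, 5 were called lower and 0 higher in Sox9 KO, where 28.8% of all genes tested were called lower and 22.2% higher. All 6 had every Sox9 KO library below every WT library, as did 34.7% of all genes tested. *Kcnmb4*, counted among both the 5 and the 6, had means of 7.14 in WT and 0.901 in Sox9 KO. It passed the filter, a mean of at least 1 over all libraries, only through WT, and some settings lost its call. The median log2 fold change, Sox9 KO minus WT, was −2.60 over the 6 channel genes and −0.07 over all genes tested. In these bulk samples, fewer cells of a type and less RNA per cell cannot be told apart.

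**Figure D1:**
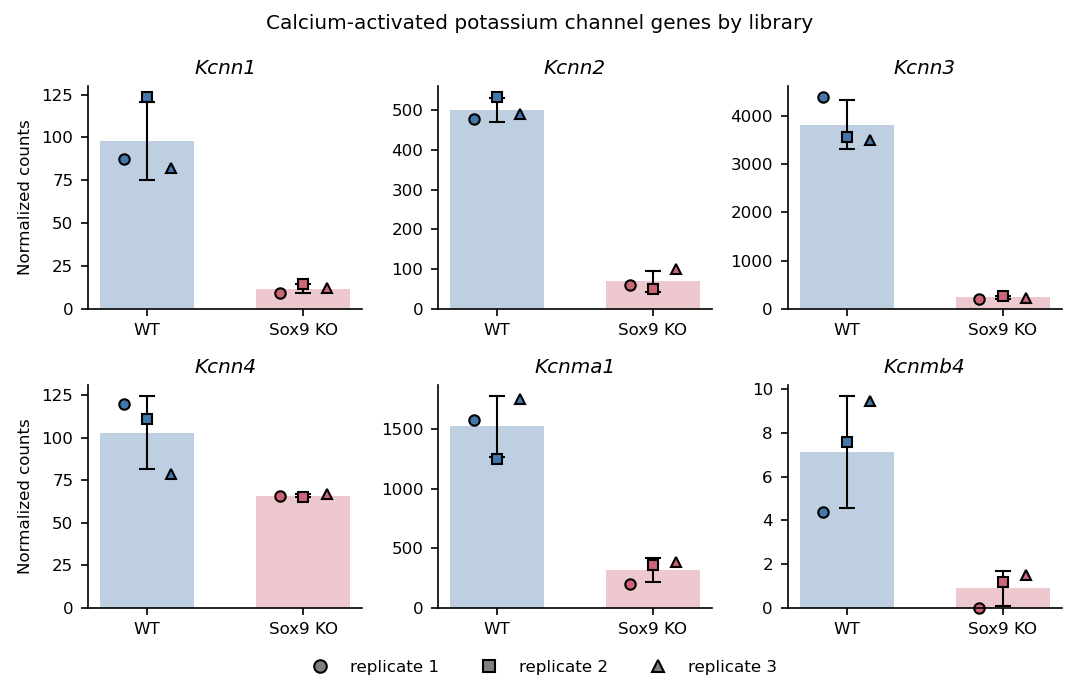
Normalized counts of the 6 channel genes (y axis, from 0, with a scale of its own in each panel) in WT and Sox9 KO; bars are means of 3 libraries, error bars are SD, and points are single libraries, with a symbol for each replicate number. Every Sox9 KO point lies below every WT point in each panel, and the gap is narrowest for *Kcnn4*, where the nearest points are 66.8 and 78.8.

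The 6 libraries held between 18242129 and 86906527 reads on genes, so that 1 read was worth between 0.395 and 1.58 normalized counts, and 14.2% to 22.4% of the reads came from *Rn45s*, the ribosomal RNA precursor. *Sox9*, which checks the labels, had 5556 ± 881 normalized counts in WT and 58.2 ± 5.88 in Sox9 KO (SD, n = 3 each). Markers of several cell types moved with the genotype, where 28.8% of all genes tested were called lower and 22.2% higher. All 10 astrocyte markers were called lower, and their summed level lay between 505597 and 558906 normalized counts in WT and between 61003 and 70911 in Sox9 KO. Of 12 neuron markers, 11 were called lower, and their sum lay between 25869 and 32943 in WT and between 3711 and 6189 in Sox9 KO. All 11 markers of microglia and macrophages were called higher, and their sum lay between 173487 and 199448 in WT and between 620400 and 736811 in Sox9 KO. No marker of these 3 lists was at 0 in every library. In the other lists, called lower or higher were 6 and 0 of 6 oligodendrocyte markers, 5 and 0 of 5 oligodendrocyte precursor markers, 6 and 0 of 6 olfactory ensheathing cell markers, 4 and 1 of 6 border macrophage markers, 2 and 2 of 6 endothelial markers, 2 and 0 of 6 mural cell markers, 0 and 2 of 6 T and NK lymphocyte markers, and 0 and 2 of 6 B lymphocyte and plasma cell markers. Of 6 erythroid markers, 2 were tested and 1 was called lower, and the 4 hemoglobin genes were at 0 in every library.

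*Kcnn3*, which encodes the SK3 pore subunit, was the most abundant SK gene and the channel gene with the largest difference. GENCODE places it at chr3:89520164-89675132 of mm10, plus strand. Its normalized counts were 4406, 3564 and 3496 in WT replicates 1, 2 and 3, and 207, 268 and 223 in Sox9 KO replicates 1, 2 and 3. The 3 WT values thus lay close together, and each was far above all Sox9 KO values. These values rest on 2218 to 5179 reads in WT and 147 to 678 in Sox9 KO, with means of 3822 ± 507 and 233 ± 31.2 normalized counts (SD, n = 3 each). The log2 fold change was −4.03 (standard error 0.14, 95% interval −4.34 to −3.73, adjusted p = 1e-08 from limma), and 390 of the 18409 genes tested fell more. Across the alternative settings its log2 fold change lay between −4.36 and −3.92.

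*Kcnn2* encodes SK2, the SK subunit best known from hippocampal and cerebellar neurons. It was the second most abundant SK gene, at chr18:45268860-45686024 (mm10, plus strand). WT libraries held 478, 534 and 490 normalized counts and Sox9 KO libraries 58.6, 50.1 and 98.7, in the order of replicates 1, 2 and 3. The WT values varied by 5.90% of their mean (SD) and the Sox9 KO values by 37.6%, with replicate 3 the highest of the latter, and the groups did not overlap. The means were 500.7 ± 29.5 and 69.2 ± 26.0 (SD, n = 3 each), which is 7.24-fold lower in Sox9 KO, and the difference was −2.90 on the log2 scale (standard error 0.25, 95% interval −3.46 to −2.33, adjusted p = 3.7e-06 from limma). Reads of *A330093E20Rik*, which lies on the opposite strand and touches *Kcnn2* exons, cannot be told apart from those of *Kcnn2* if the counting did not use the strand, of which the sources used here say nothing. That gene had a mean of 16.7 normalized counts over the 6 libraries.

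*Kcnn1*, the gene of SK1, was the least abundant of the SK genes, at chr8:70842049-70863258 (mm10, minus strand). Its normalized counts were 87.7, 124 and 82.0 in WT and 8.93, 14.2 and 12.2 in Sox9 KO, in replicate order. Replicate 2 was highest in each group, and the highest Sox9 KO value stayed well below the lowest WT value. In reads, these are 60, 180 and 52 against 9, 36 and 8, so that the Sox9 KO values carry a wide counting error. The means of 97.8 ± 22.7 and 11.8 ± 2.66 (SD, n = 3 each) differ by 8.32-fold, or −2.95 on the log2 scale (standard error 0.36, 95% interval −3.76 to −2.14, adjusted p = 4.7e-05 from limma). Quantile normalization gave a smaller difference, of −2.14. The 3 SK genes therefore all fell. Their 95% intervals were −4.34 to −3.73 for *Kcnn3*, −3.46 to −2.33 for *Kcnn2* and −3.76 to −2.14 for *Kcnn1*. Whether such intervals overlap does not decide whether the fold changes differ. The differences between these fold changes were not tested.

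*Kcnn4*, which encodes KCa3.1, stood apart from the SK genes in the size of its difference. Its position is chr7:24370263-24386690 (mm10, plus strand). Its normalized counts were 119.8, 110.8 and 78.8 in WT and 65.5, 65.1 and 66.8 in Sox9 KO, in replicate order. The Sox9 KO values were nearly equal, with an SD of 1.36% of their mean, although the counting error of the 44 reads of replicate 3 alone is 15.1%, and WT replicate 3 came closest to them. The means were 103 ± 21.6 and 65.8 ± 0.895 (SD, n = 3 each), and the log2 fold change of −0.62 (standard error 0.26, 95% interval −1.21 to −0.03) had an unadjusted p of 0.041 and an adjusted p of 0.065 from limma. The call and its direction depended on the processing. *Kcnn4* was called lower without WT replicate 3 (−0.80, adjusted p = 0.029), with the same total per library (−0.86, adjusted p = 0.018) and in edgeR with median-of-ratios factors (−0.65, adjusted p = 0.046), whereas quantile normalization placed it higher in Sox9 KO (0.21, adjusted p = 0.52).

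The promoters of *Kcnn3* and *Kcnn4* are shown because these genes had the largest and the smallest difference of the 6. Each window runs from 250 bases before to 50 bases after the RefSeq transcription start (GRCm38.p6), at chr3:89519914-89520213 and chr7:24370013-24370312, both on the plus strand. Capitals mark matches, on either strand and with no overlap among them, to the SOX core ACAAT, and to the half-site TTGGC of the nuclear factor I proteins, which act beside SOX9 when astrocytes form.
Kcnn3: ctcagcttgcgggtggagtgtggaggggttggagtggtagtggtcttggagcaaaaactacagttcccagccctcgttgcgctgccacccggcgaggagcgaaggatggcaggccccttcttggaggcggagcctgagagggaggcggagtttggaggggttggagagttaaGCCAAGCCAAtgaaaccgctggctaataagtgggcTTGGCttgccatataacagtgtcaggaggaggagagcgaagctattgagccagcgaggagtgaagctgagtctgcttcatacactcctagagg
Kcnn4: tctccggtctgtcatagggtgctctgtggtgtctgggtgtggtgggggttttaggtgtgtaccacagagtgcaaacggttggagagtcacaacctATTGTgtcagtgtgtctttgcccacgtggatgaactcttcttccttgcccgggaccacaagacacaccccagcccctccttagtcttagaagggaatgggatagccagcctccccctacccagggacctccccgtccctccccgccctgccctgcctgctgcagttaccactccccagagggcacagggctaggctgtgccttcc

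Windows were searched for 5 of the 6 genes, and none was searched for *Kcnn2*. The SOX core occurred 1 time in the *Kcnn4* window, 155 bases before the start, and in none of the other windows searched, which were 2 of *Kcnn1* and 1 each of *Kcnn3*, *Kcnma1* and *Kcnmb4*. It occurred in 31.0% of all 32851 promoter windows. The nuclear factor I half-site occurred 3 times in the *Kcnn3* window, 78, 73 and 43 bases before the start, where the first pair lies side by side. It occurred 1 time in the *Kcnma1* window and 1 time in a *Kcnn1* window, and in 46.7% of all windows, with 3 or more matches in 3.75%. The TATA box TATAAA was in none of the 6 windows and in 13.6% of all windows. The *Kcnma1* and *Kcnmb4* windows were rich in G and C, at 78.0% and 79.0%, with 36 and 48 CpG dinucleotides, while the *Kcnn3* and *Kcnn4* windows held 57.7% and 59.7% with 11 and 6, against medians of 52.7% and 7 over all windows. The half-site and the TATA box were chosen after the letters of these promoters had been seen, and a match of so few letters describes the sequence and is not a binding site.

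*Kcnma1*, which encodes the BK pore, fell with a wide spread among Sox9 KO libraries. The gene is at chr14:23289431-24014491 (mm10, minus strand). Its normalized counts were 1571, 1246 and 1748 in WT and 199.5, 359 and 387 in Sox9 KO, in replicate order. Replicate 1 was the lowest in Sox9 KO and replicate 2 in WT, and the lowest WT value was still well above the highest Sox9 KO value. The means were 1522 ± 255 and 315 ± 101 (SD, n = 3 each), and the log2 fold change was −2.31 (standard error 0.24, 95% interval −2.84 to −1.79, adjusted p = 1.2e-05 from limma). Without Sox9 KO replicate 1 it was −2.01.

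*Kcnmb4*, which encodes the β4 subunit of brain BK channels, was close to the detection limit. The gene is at chr10:116417861-116473878 (mm10, minus strand). It was counted with 3, 11 and 6 reads in WT and 0, 3 and 1 reads in Sox9 KO, which correspond to 4.38, 7.57 and 9.46 and to 0, 1.18 and 1.52 normalized counts. The groups did not overlap, but the difference rests on 20 reads in all WT libraries and 4 in all Sox9 KO libraries. The log2 fold change was −2.15 (standard error 0.68, 95% interval −3.66 to −0.65, adjusted p = 0.018 from limma), and it ran from −3.54 with a pseudocount of 0.1 to −1.03 with a pseudocount of 5. The call was lost without Sox9 KO replicate 1 (adjusted p = 0.065), in DESeq2 (adjusted p = 0.063), in edgeR without a filter (adjusted p = 0.054) and with quantile normalization (adjusted p = 0.061). *Kcnmb4os2* on the opposite strand, with a mean of 2.10 normalized counts over the 6 libraries, touches *Kcnmb4* exons, and its reads cannot be told apart if the strand was not used.

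**Figure D2:**
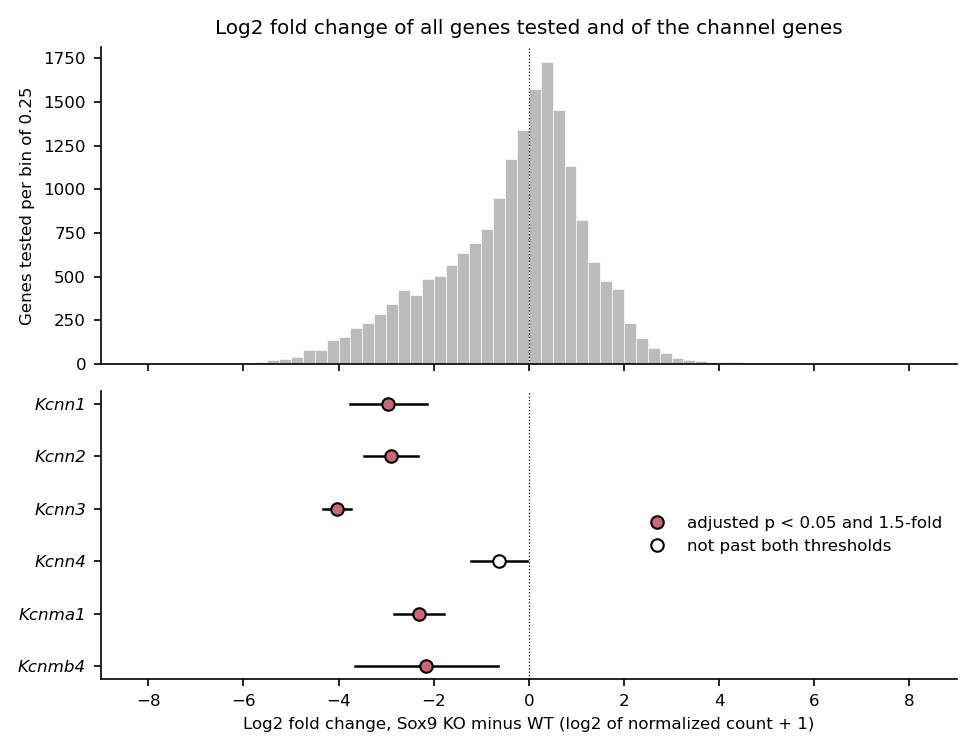
Top, number of genes tested in each bin of log2 fold change (Sox9 KO minus WT); bottom, log2 fold change of the 6 channel genes with 95% intervals (n = 3 against 3), filled where the gene was called. *Kcnn3*, at −4.03, lies in the lower tail of all genes, and *Kcnn4*, at −0.62, has an interval that ends just below 0 and moved to a value above 0 with quantile normalization.

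Levels of different genes were compared per kilobase of the longest GENCODE coding transcript. In WT the order was *Kcnn3* with 1325 ± 176 normalized counts per kilobase, *Kcnn2* with 136 ± 8.02, *Kcnma1* with 126 ± 21.1, *Kcnn4* with 51.8 ± 10.8, *Kcnn1* with 24.2 ± 5.62 and *Kcnmb4* with 5.22 ± 1.88 (SD, n = 3 each). The neighbours *Kcnn2* and *Kcnma1* overlapped between libraries, and the other neighbours did not. In Sox9 KO, *Kcnn3* was still first, with 80.7 ± 10.8, but *Kcnn4* came second with 33.1 ± 0.450, ahead of *Kcnma1* with 26.1 ± 8.38, *Kcnn2* with 18.8 ± 7.05, *Kcnn1* with 2.91 ± 0.657 and *Kcnmb4* with 0.659 ± 0.584. There *Kcnma1* and *Kcnn2* again overlapped, and *Kcnn4*, at 32.7 to 33.6, was barely above the highest *Kcnma1* library at 32.0. The order depends on the transcript model. The longest coding transcript of *Kcnn3* has 2884 bp and all of its exons together have 10451 bp. Per kilobase of all exons the WT means were 366 for *Kcnn3*, 89.6 for *Kcnma1*, 67.0 for *Kcnn2*, 21.3 for *Kcnn1* and 20.2 for *Kcnn4*. In Sox9 KO they were 22.3 for *Kcnn3*, 18.6 for *Kcnma1*, 12.9 for *Kcnn4*, 9.26 for *Kcnn2* and 2.57 for *Kcnn1*. By this length, *Kcnn3* at 19.9 to 25.6 overlapped with *Kcnma1* at 11.8 to 22.8 in Sox9 KO, and *Kcnma1* was above *Kcnn3* in replicate 3. *Kcnn4*, at 12.7 to 13.1, overlapped there with *Kcnma1* and with *Kcnn2* at 6.71 to 13.2. In WT, *Kcnn1* and *Kcnn4* overlapped.

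To compare the makeup of the pore genes free of the scaling between libraries, each pore gene was expressed as a share of the summed reads per kilobase of all 5. The share of *Kcnn3* was 81.7%, 78.7% and 78.2% in WT and 51.6%, 53.8% and 44.8% in Sox9 KO. The share of *Kcnn4* was 3.22%, 3.55% and 2.56% in WT and 23.6%, 19.0% and 19.4% in Sox9 KO. *Kcnma1* had shares of 6.95%, 6.56% and 9.33% in WT and 11.8%, 17.2% and 18.5% in Sox9 KO. The difference of the mean shares, Sox9 KO minus WT, was thus −29.5 percentage points for *Kcnn3*, 17.6 for *Kcnn4* and 8.25 for *Kcnma1*, without overlap between the groups. Each gave p = 0.1 in an exact two-sided permutation test, the smallest that 3 against 3 libraries allow, and 0.167 after Benjamini-Hochberg adjustment over the 5 exact tests. The shares of *Kcnn2*, with means of 8.26% and 11.6%, and of *Kcnn1*, with means of 1.47% and 1.79%, overlapped between the groups (exact permutation p = 0.3 each). The level of the *Kcnn3* share depends on the length used. Over all exons its mean was 64.7% in WT and 34.3% in Sox9 KO, and without division by length 63.1% and 34.0%. Over all exons the difference was −30.4 points for *Kcnn3*, and the gain of *Kcnma1* was 11.9 points and that of *Kcnn4* 16.4.

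**Figure D3:**
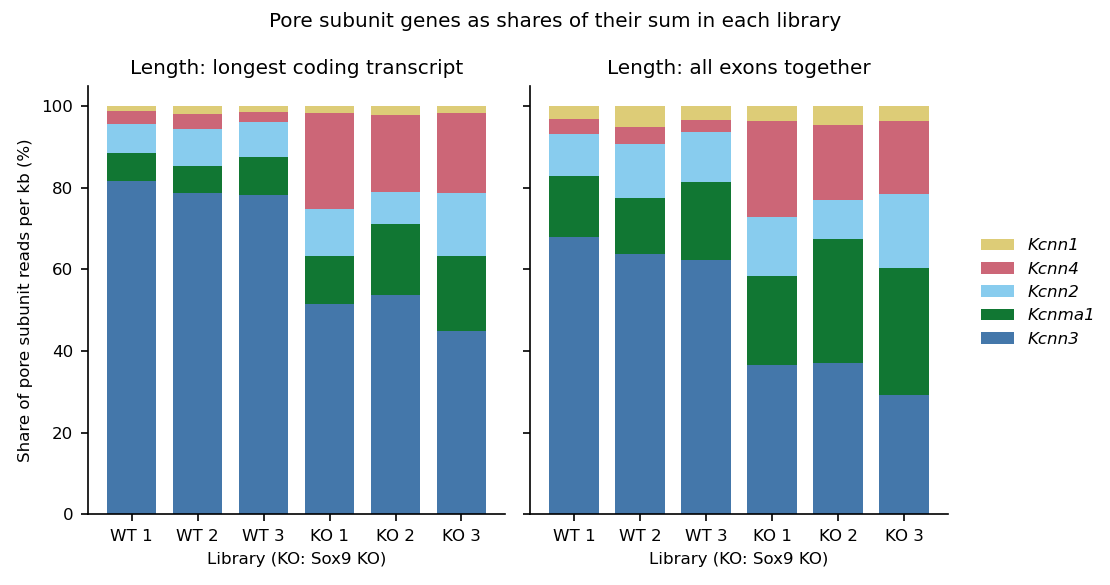
Shares of the 5 pore genes in their summed reads per kilobase (y axis, percent) in each of the 6 libraries, with lengths from the longest coding transcript (left) or from all exons together (right). The *Kcnn3* share is smaller in each Sox9 KO library, at 44.8% to 53.8% on the left against 78.2% to 81.7% in WT, and the *Kcnn4* share is larger.

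The log2 ratio of *Kcnn4* to *Kcnn3* per kilobase within each library was −4.65, −4.46 and −4.92 in WT and −1.11, −1.49 and −1.19 in Sox9 KO. It was higher by 3.41 in Sox9 KO, with no overlap (exact two-sided permutation p = 0.1, the smallest possible). The ratio of the β4 subunit gene to its pore gene, *Kcnmb4* to *Kcnma1*, differed by 0.16 between the groups (exact permutation p = 0.8), which is within the spread between libraries and rests on the few *Kcnmb4* reads.

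Each channel gene was also set against the summed markers of astrocytes, of neurons, and of microglia and macrophages, as a log2 ratio within each library. Differences are Sox9 KO minus WT. Relative to the astrocyte markers, *Kcnn1* differed by 0.08 and *Kcnn2* by 0.14, less than the spread between libraries. With the mean of the log2 values of these markers in place of their sum, these differences were 0.51 and 0.57. *Kcnn3* was lower relative to the astrocyte markers (−0.997, or −0.57 with the mean) and *Kcnn4* was higher (2.42), and their groups did not overlap. *Kcnma1* and *Kcnmb4* were higher relative to these markers by 0.72 and 0.88, with overlapping groups. Relative to the neuron markers the differences were −0.24 for *Kcnn1*, −0.19 for *Kcnn2*, −1.32 for *Kcnn3*, 2.09 for *Kcnn4*, 0.40 for *Kcnma1* and 0.56 for *Kcnmb4*, and *Kcnn3* and *Kcnn4* did not overlap. Relative to the microglia and macrophage markers all 6 were lower, with differences from −2.54 (*Kcnn4*) to −5.96 (*Kcnn3*) and no overlap. The lowest p of the 18 ratios was 0.1 in exact two-sided permutation tests, the smallest possible, and 0.18 after Benjamini-Hochberg adjustment. All 10 astrocyte markers were themselves called lower in Sox9 KO, and *Slc1a2*, *Glul* and *Slc1a3* were the most abundant of them. The paper reports reduced *Slc1a2* expression after the loss of *Sox9*. Ratios to the astrocyte markers therefore cannot be read as levels per astrocyte. How far these markers fell within astrocytes was not tested. The part that the cell makeup of the sorted samples has in the channel differences was also not tested.

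**Figure D4:**
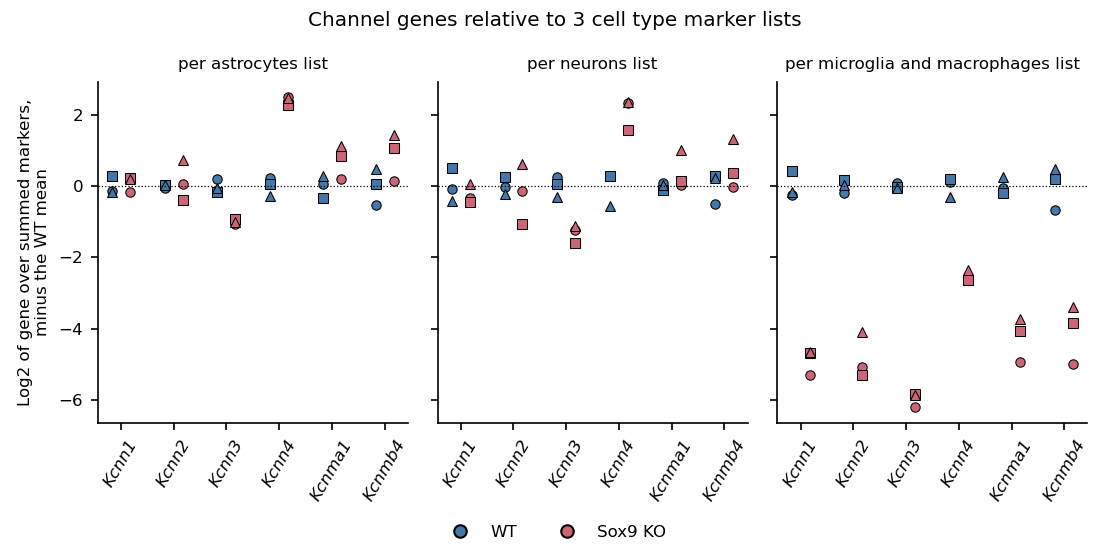
Log2 of each channel gene over the summed markers of astrocytes (left), neurons (middle) or microglia and macrophages (right) in each library, minus the WT mean (y axis, log2); points are libraries, with circles, squares and triangles for replicates 1, 2 and 3. Relative to astrocyte markers, the Sox9 KO points of *Kcnn3* lie below WT (difference of the means −0.997), those of *Kcnn4* lie above (2.42), and those of the other genes overlap with WT.

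Genes that work with these channels were followed in 4 lists. Of the BK accessory subunits and Slo relatives, 9 of 10 were tested, and 7 were called lower and 1 higher, with a median log2 fold change of −2.19. Over all genes tested, 28.8% were called lower and 22.2% higher, and the median was −0.07. *Lrrc26* and *Kcnmb3*, counted among those called, had reads in only 1 of the groups. *Kcnt1*, which encodes the sodium-activated potassium channel Slack, had 1643 ± 313 normalized counts in WT and 62.6 ± 6.89 in Sox9 KO (SD, n = 3 each) and fell by 4.68 on the log2 scale (adjusted p = 1.8e-08 from limma). *Lrrc55*, an accessory subunit of BK, went from 225 ± 33.1 to 48.8 ± 7.77 and fell by 2.19. The other β subunits did not move together. *Kcnmb2* fell by 1.63 (with quantile normalization −0.81, adjusted p = 0.16 from limma), *Kcnmb1* was at −0.38 with overlapping groups and was at 0.44 under another scaling, and *Kcnmb3* rose from 0 reads in every WT library to 2, 15 and 4 reads. Against a floor of 3 reads over the WT group, the Sox9 KO mean of *Kcnmb3* was 4.31-fold higher. *Lrrc26* had 1, 13 and 9 reads in WT and 0 reads in every Sox9 KO library. Its WT mean was 11.5-fold above the same floor over the Sox9 KO group. These folds leave out the error of the group with reads and are not lower bounds. The log2 fold changes from limma were 2.40 for *Kcnmb3* (standard error 0.71) and −2.85 for *Lrrc26* (standard error 0.82). *Kcnt2* fell by 1.74, and its call was also lost with quantile normalization (−0.92, adjusted p = 0.17 from limma). With *Kcnmb3* and *Lrrc26* at the folds against these floors, the median of the list stayed at −2.19. *Lrrc52* had at most 2 reads in any library and was not tested.

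The SK gating partners are calmodulin, which opens SK channels, and the casein kinase 2 and protein phosphatase 2A subunits, which change its calcium sensitivity on the channel. Of 10 tested, 1 was called lower and 1 higher, and their median log2 fold change was −0.05. That is 10% in each direction, where all genes tested had 28.8% lower, 22.2% higher and a median of −0.07. The calmodulin genes *Calm3* and *Calm2* encode the same protein, and *Calm3* fell by 1.41 while *Calm2* rose by 0.78. *Calm2* was not called under any of the 3 other scalings (0.29 to 0.54), which are quantile normalization and the same total per library with and without *Rn45s*. The 7 kinase and phosphatase genes lay between −0.47 (*Ppp2r1a*) and 0.47 (*Ppp2r1b*), and none was called, although *Ppp2r1a* was called lower under each of those scalings (−0.80 to −0.71). *Csnk2b*, at 0.20, had the opposite sign with the same total per library (−0.04, or −0.12 without *Rn45s*). The values of these partners, from −1.41 to 0.78, lay above those of all 3 SK genes.

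Of the 5 regulators of KCa3.1, 1 was called lower and 3 higher, with a median of 0.76. These are 20% and 60%, beside 28.8% and 22.2% of all genes tested. *Pik3c2b*, a lipid kinase that makes the phosphoinositide the channel needs, rose by 0.76 (540 ± 58.0 to 912 ± 74.6 normalized counts, SD, n = 3 each). *Mtmr6*, the phosphatase that removes that lipid, rose by 1.01 (2362 ± 64.8 to 4802 ± 731), and *Trim27*, the ubiquitin ligase that inhibits *Pik3c2b*, rose by 1.00. *Nme2*, the histidine kinase that activates the channel, was at −0.21 with overlapping groups, and *Phpt1*, the histidine phosphatase that inhibits it, fell by 0.85. *Pik3c2b* lost its call with the same total per library (0.52, or 0.43 without *Rn45s*) and *Phpt1* with quantile normalization (−0.40), whereas *Mtmr6* and *Trim27* were called higher under all 3 other scalings.

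Calcium sources were the fourth list, with 15 genes tested, 8 called lower and 4 higher, and a median of −0.64. The calls make up 53.3% lower and 26.7% higher, and the latter is near the 22.2% of all genes tested. Of all genes tested, 28.8% were called lower. The ryanodine receptors and voltage-gated calcium channels made up most of the genes that fell. *Ryr2* went from 1690 ± 268 to 118 ± 22.2 normalized counts (log2 fold change −3.83), *Cacna1c*, the pore of an L-type channel, from 843 ± 148 to 96.7 ± 36.2 (−3.18), and *Cacna1e* from 787 ± 181 to 147 ± 61.1 (−2.46), each SD, n = 3. *Ryr1*, *Ryr3*, *Cacna1b* and *Cacna1a* fell by 2.75, 1.73, 2.07 and 0.64. The IP3 receptors divided. *Itpr1* fell by 1.27, and *Itpr3* rose by 0.85 (0.53 and not called with the same total without *Rn45s*). *Itpr2*, the main IP3 receptor of astrocytes, was at 0.10 (5209 ± 200 and 5599 ± 492). It was below 0 under all 3 other scalings (−0.29 to −0.14) and was called under none of them. Of the genes of store-operated entry, *Orai1* rose by 1.02 and *Stim2* by 0.73, while *Stim1* was at 0.43 and not called. *Stim2* was not called with the same total per library (0.49, or 0.40 without *Rn45s*), and 11 and 10 of the calcium sources were called under these scalings. *Trpv4*, a cation channel that passes calcium, rose by 2.06, from 118 ± 39.2 to 498 ± 155. *Cacna1d* was at 0.33 and not called.

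Among the other 81 tested genes with a *Kcn* symbol, 54 were called lower, 8 higher and 19 neither, and their median log2 fold change was −2.23. In percent, 66.7% were lower and 9.88% higher, beside 28.8% and 22.2% of all genes tested. The median of −2.60 of the calcium-activated genes thus lies near that of the potassium channel family as a whole, and no difference between them was tested. Quantile normalization moved the median of all genes tested up by 0.26, and scaling to the same total moved it by −0.23, or by −0.31 without *Rn45s*. *Kcnn4* was the only one of the 6 channel genes whose direction turned under these scalings.

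The genes with the most similar pattern to each channel gene were found as those with the smallest root mean square difference of centred log2 values over the 6 libraries, among 15558 genes with a mean of at least 10 normalized counts. For *Kcnn3* these were *Ccdc141* (difference of 0.068), *Htra1* (0.071) and *Gnao1* (0.077). For *Kcnn4* they were *Tex264* (0.046), *Smim10l1* (0.064) and *Zfp362* (0.067), and for *Kcnma1* they were *Astn2* (0.105), *Fam228a* (0.108) and *Adamts9* (0.119). *Kcnn2* was matched by *Vwa1*, *Plekhg1* and *Steap2* at 0.133 to 0.140, *Kcnn1* by *Nyap2* and *Pcdhb10* at 0.113 and 0.134, and *Kcnmb4* by *Mmp16*, *A2m* and *Grem1* at 0.140 to 0.191. Over 6 libraries in 2 groups, this measure rests mainly on the size of the group difference.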

How the data were processed

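RNA-seq was done on TurboRFP+ cells sorted from the olfactory bulbs of 3 WT and 3 Sox9 KO mice, with total RNA made into libraries by the Trio RNA-Seq System. The authors mapped reads to mm10 with STAR 2.5.0a, used GenomicAlignments and GenomicFeatures to count reads on genes, and applied DESeq2 1.20.0 for normalization. Which gene annotation was counted, and whether by strand, the sources used here do not say. The deposited signal values, named RPM, are read counts over a size factor of the library, since 100% of the values in each library were whole multiples of 1 step within 0.01 read. The 4 rows whose symbol is listed more than once were left out.

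Genes whose mean over all libraries reached 1 were compared with limma 3.58.1 in R 4.3.3, using log2(normalized count + 1) and a variance trend. The added count of 1 understates the change of low genes. edgeR 4.0.16 and DESeq2 1.42.0 on the recovered reads, other pseudocounts, filters, scalings and thresholds, and each library left out in turn were alternatives. The fitting scripts were tested on simulated data with few changed genes, balanced up and down. That test does not cover the scaling between libraries in data with as many changes as these. Counting intervals and floors cover counting error only, and a floor covers only that of the group without reads. Transcript lengths were taken from GENCODE in place of RefSeq, for which none was found in the tables used here, and the length of all exons was added after the data were examined. Channel genes, partner lists and the 12 marker lists were chosen with earlier results of these data known. All 6 channel genes, the partner genes and the 3 most similar genes of each were named by rule, of which a few are not reported here. *Rn45s*, the overlapping genes and the promoter matches lie outside it.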

Additional observations from a re-analysis of the deposited data

How the results depend on the processing

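*Kcnn1*, *Kcnn2*, *Kcnn3* and *Kcnma1* were called lower under every alternative run. *Kcnn4* reversed with quantile normalization (0.21) and was called lower with the same total per library (−0.86), the same total without *Rn45s* (−0.94), no variance trend (−0.62, adjusted p = 0.031 from limma), median-of-ratios factors in edgeR (−0.65) and an unadjusted p of 0.05 (−0.62); with each library left out in turn it lay between −0.80 and −0.50. *Kcnmb4* lost its call with quantile normalization (−1.65), in DESeq2 (−2.99) and in edgeR without a filter (−2.78), lay between −2.42 and −1.74 with each library left out, and had no value at a mean of at least 10. Between 4 and 6 of the channel genes were called with each library left out. Without the fold threshold, 6 SK gating partners were called, and 11281 of the 18409 genes tested. Without division by length the share of *Kcnn4* rose by 8.03 points and that of *Kcnma1* by 19.3, and with all exons that of *Kcnma1* by 11.9. Relative to the mean log2 of the astrocyte markers in place of their sum, the differences were 0.51 (*Kcnn1*), 0.57 (*Kcnn2*), −0.57 (*Kcnn3*), 2.85 (*Kcnn4*) and 1.15 (*Kcnma1*). The cause of these changes was not tested. Same-numbered WT and Sox9 KO libraries did not deviate together (correlations of −0.092, −0.014 and −0.022), and a replicate block changed no call of the 6 genes (*Kcnn4*, adjusted p = 0.094 from limma).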
